A study of Homo sapiens with 2 samples.

Results

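The 117 LCN2-high barcodes and the 117 LCN2-low barcodes described here are the highest and the lowest by LCN2 among 353 barcodes, of 3298 in all. The 353 were chosen by the RNA of genes that mark 1 inflammatory lung adenocarcinoma line, and some of them also hold much RNA of other lines. A barcode had to hold 3000 to 40000 gene UMIs (unique molecular identifiers) with up to 20% of them mitochondrial, and 1000 or more peak counts, which 2343 barcodes did. The UMI sum of S100A9, CST1, LINC02755 and ATP10B had to be at least 2 and more than 3 times the sum of 9 genes that mark the other lines. These 353 barcodes were then ranked by the LCN2 share of UMIs outside mitochondrial genes, and split into 3 nearly equal groups, of which the 119 LCN2-middle barcodes lie between the others. The study grew the lines H2228, H1975, A549, H838 and HCC827 apart to near confluence, froze them as single cells, and captured an equal mixture together, to give a benchmark for methods of single-cell ATAC analysis. Each barcode has an RNA and an ATAC (chromatin accessibility) profile, from 1 RNA library (sequenced in 2 runs) and 1 ATAC library of the fraction that received 80% of the capture, and the labels name no drug or genetic change in any line. The labels assign no barcode to a line, so the barcodes are called by their leading genes and not by a line's name. With 1 library of each kind and no replicate cultures named, no test was possible: barcodes are not replicates, and all intervals are at 95% and cover counting error only.

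LCN2 encodes lipocalin-2, a secreted protein of airway epithelium and neutrophils that binds bacterial siderophores and so withholds iron from bacteria. Its transcription is known to respond to interleukin-1 and interleukin-17 through NF-kB and C/EBP factors, and it is released with other acute phase and mucosal defence proteins. In lung epithelium these proteins accompany mucins, the receptor that carries immunoglobulin A to the lumen, and, under interferon-gamma, MHC class II molecules.

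The label of an inflammatory line was checked first. LCN2, which did not enter the choice of the 353 barcodes, was at 25009 CPM (counts per 1000000 UMIs outside mitochondrial genes) in the summed LCN2-high barcodes and 3383 CPM in LCN2-low. It was at 11034 CPM in LCN2-middle. In barcodes chosen in the same way for the other lines (509 led by RBFOX3, 423 by SLC30A8, 210 by GRIA4 and 179 by DHRS2) it was at 365 to 770 CPM. SAA1, an acute phase serum amyloid, was at 2187 CPM in LCN2-high and 618 CPM in LCN2-low, against at most 94.7 CPM in the other lines, and the chemokine CXCL8 at 991 and 923 CPM, against at most 43.3 CPM. The LCN2 values chose both groups and are no finding. Per barcode LCN2 ranged from 16513 to 48495 CPM in LCN2-high (median 23595) and from 236 to 6616 CPM in LCN2-low (median 3079). Just outside, LCN2-middle ended at 16486 CPM above and 6621 CPM below, and 39 of the 353 barcodes held exactly 2 UMIs of the choosing genes. Among the choosing genes, given only as a description, S100A9 was at 1381 CPM in LCN2-high and 350 CPM in LCN2-low, CST1 at 219 and 140 CPM, LINC02755 at 75.4 and 182 CPM, and ATP10B at 20.6 and 67.6 CPM.

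The LCN2-low barcodes also differed from the LCN2-high barcodes in quality and purity, and these values stand beside every result that follows. Gene UMIs had a median of 13660 in LCN2-high and 10233 in LCN2-low, and peak counts of 29944 and 34017. The mitochondrial share had a median of 9.63% in LCN2-high and 6.15% in LCN2-low, and lay under 4% in 0 of 117 LCN2-high and 48 of 117 LCN2-low barcodes (41.0%, 32.0% to 50.5%). Nuclear MALAT1 and NEAT1 took 4.50% of UMIs in LCN2-high and 5.43% in LCN2-low (medians). Genes that lead the GRIA4 line (at least 8-fold above each other line) summed to medians of 1001 CPM in LCN2-high and 1081 CPM in LCN2-low. Their highest barcodes were at 2249 and 57979 CPM, against that line's own median of 23455 CPM. For the RBFOX3 line the highest were at 1991 and 63088 CPM, against 39936 CPM. Genes that lead the chosen barcodes fell to 14253 CPM in LCN2-high and 303 CPM in LCN2-low. Accessibility at the leading peaks of another line reached 20% of the way to that line's own level in 2 LCN2-high and 15 LCN2-low barcodes. For the GRIA4 line it did so in 0 LCN2-high and 8 LCN2-low barcodes. The LCN2 share of 16 LCN2-low barcodes and 0 LCN2-high barcodes was at or under the highest level of the other lines, 770 CPM. Each gene group was therefore also summed in a restricted set of 289 barcodes with a mitochondrial share of at least 4% and no such accessibility, ranked anew into 96 LCN2-high and 96 LCN2-low barcodes with median mitochondrial shares of 9.77% and 7.87% and median gene UMIs of 13565 and 12472. Of the 117 LCN2-low barcodes 54 were left out of this set. Its LCN2 medians were 26223 and 5096 CPM, against 23595 and 3079 CPM in the groups of all barcodes. The restricted groups thus differ less in LCN2 by ratio, and the part of this in smaller ratios was not tested. Most of these barcodes are also in the groups above, so the restricted set is no independent sample, and the part of barcode quality in the remaining differences was not tested.

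**Figure D1:**
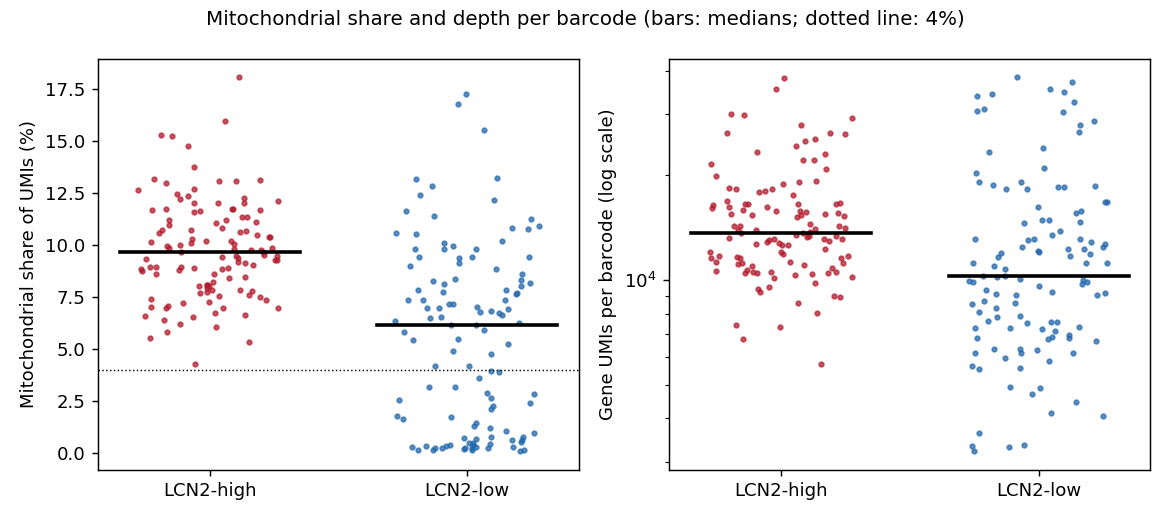
Mitochondrial share of UMIs in percent (left) and gene UMIs per barcode on a log scale (right) for the 117 LCN2-high and 117 LCN2-low barcodes; each point is a barcode and bars are medians. The LCN2-low barcodes spread down to 0.0898% mitochondrial UMIs, while no LCN2-high barcode lay under 4.28%.

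More genes were lower than higher in LCN2-high barcodes. Of 6150 genes with at least 100 UMIs in both groups together, 354 (5.76%) were at least 1.5-fold higher and 625 (10.2%) at least 1.5-fold lower in LCN2-high, by the ratio of CPM + 1. The median log2 ratio of all of them was -0.085. The split depended on the scaling: with trimmed-mean factors (TMM), which moved every log2 ratio by 0.13, 598 genes were higher and 382 lower, and the share of calls that were higher was 61.0% in place of 36.2%. In the restricted set 211 genes (3.82%) were higher and 366 (6.62%) lower of 5530 measured, 159 and 286 of them among the genes called in all barcodes. These shares, and 5.76% and 10.2% in all barcodes, stand beside every count of list members that follows. The LCN2-middle barcodes, which entered neither group, were split by the same LCN2 share in the same library, so they are no replicate. Barcode quality also changed along this rank. The median mitochondrial share was 9.51% in a bin with a median of 14509 CPM of LCN2 and 7.90% in one at 7334 CPM. Between the upper 59 and the lower 59 LCN2-middle barcodes (13448 against 8362 CPM of LCN2), 266 of the 354 higher genes (75.1%) were above 0. Of the 625 lower genes 423 (67.7%) were below 0, against 46.7% above and 53.3% below for all measured genes.

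The 2 genes furthest above in LCN2-high barcodes encode proteins of mucosal surfaces. PIGR, the receptor that carries immunoglobulin A across epithelium, had 1197 UMIs in LCN2-high and 66 in LCN2-low, or 746 CPM (704 to 789) against 47.0 CPM (36.3 to 59.8), a 15.9-fold difference (12.4 to 20.7). Per barcode its level ran from 0 to 2853 CPM with a median of 518 CPM in LCN2-high, and from 0 to 599 CPM with a median of 0 in LCN2-low. FCGBP, an Fc-binding protein of mucus, was at 1254 CPM in LCN2-high and 86.1 CPM in LCN2-low, 14.6-fold higher (12.1 to 17.6). It was uneven: its highest LCN2-high barcode was at 9512 CPM, while the group's median was 288 CPM. Both genes still stood apart in the restricted set, with PIGR at 766 and 70.0 CPM and FCGBP at 1291 and 154 CPM. With every barcode thinned to 3000 UMIs, PIGR was seen in 67.5% of LCN2-high (58.2% to 75.9%) and 9.40% of LCN2-low barcodes (4.79% to 16.2%). Unthinned, the shares were 90.6% and 21.4%, at median depths of 12383 and 9720 UMIs outside mitochondrial genes. In the other lines the thinned shares were 0.948% to 2.86% and the unthinned shares 1.89% to 10.95%, at median depths of 5337 to 11622 UMIs. Whether that detection came from free RNA, mixtures or the lines' own RNA was not tested.

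Next in order came SLC6A14, an amino acid transporter, at 103 CPM in LCN2-high and 15.7 CPM in LCN2-low, and NAPSA, the aspartic protease napsin A of alveolar type II cells, at 89.1 and 14.2 CPM. AZGP1, a secreted zinc-binding glycoprotein, was at 255 and 44.9 CPM, and AQP3, a water and glycerol channel, at 55.4 and 11.4 CPM. The remaining 14 of the 20 highest genes were between 2.69-fold and 4.60-fold higher, namely ARHGEF38, SAA1, DAPP1, ZG16B, AGR2, ITPKA, EBI3, C3, TIMP3, FICD, GCNT3, HLA-DPB1, PLAT and MUC20. They include the complement component C3 at 1194 CPM in LCN2-high and 418 CPM in LCN2-low, EBI3, a cytokine subunit, at 66.7 and 21.4 CPM, and PLAT, the tissue plasminogen activator, at 945 and 351 CPM. GCNT3, an enzyme that branches mucin glycans, was at 81.6 and 29.2 CPM. None of these 20 genes came under 1.5-fold in any of the 14 alternative settings that were run for single genes, but the sizes moved. With groups formed within strata of the mitochondrial share, the log2 ratio was 3.04 in place of 3.96 for PIGR. It was 2.83 in place of 3.85 for FCGBP and 1.87 in place of 2.65 for SLC6A14. Of the 20, AGR2 alone had a larger log2 ratio there, 1.70 in place of 1.62. The ratio in the restricted set was smaller by over 1.5 times for FCGBP (8.37-fold), FICD (1.76-fold) and HLA-DPB1 (1.63-fold). For C3 the lowest log2 ratio, 0.97, was that of the restricted set, where it was at 1247 and 635 CPM. Between upper and lower LCN2-middle barcodes 18 of the 20 were above 0, and ARHGEF38 (-0.35) and FICD (-0.46) were below.

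**Figure D2:**
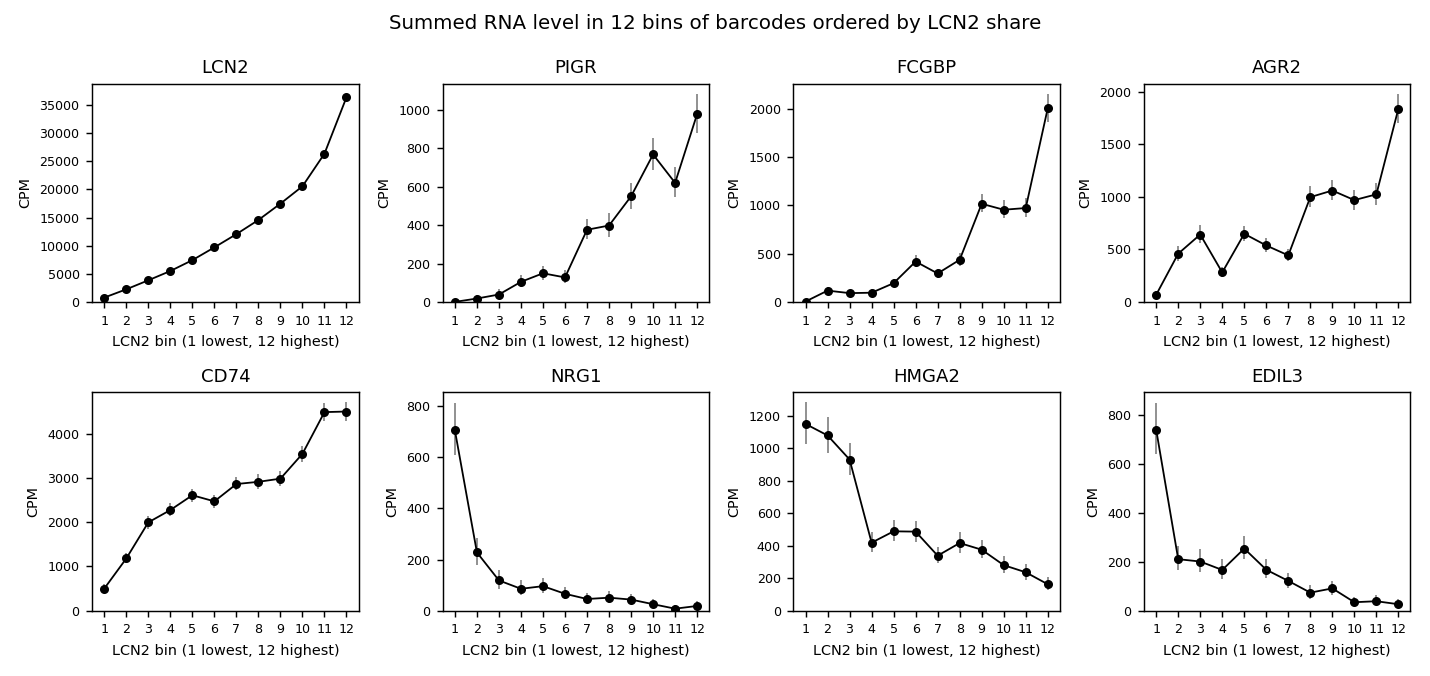
Summed RNA level in CPM of 8 genes in 12 bins of 29 or 30 barcodes along the LCN2 rank, from the lowest LCN2 share (1) to the highest (12); lines at points are exact Poisson intervals. PIGR was at 0 CPM in the lowest bin and 979 CPM in the highest, while NRG1 was at 706 CPM in the lowest bin, whose median mitochondrial share was 0.617%, and 18.3 CPM in the highest.

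Acute phase and mucosal defence genes were mostly higher in LCN2-high. Of 25 genes in this list 16 were measured, 9 were higher and 1, the complement protease C1R, was lower, with a median log2 ratio of 0.78. Besides PIGR, SAA1 and C3, the higher members were SAA2 (571 CPM in LCN2-high and 222 CPM in LCN2-low), SAA4 (259 and 105 CPM), the protease inhibitors SERPINA1 (339 and 147 CPM) and SLPI (383 and 200 CPM), WFDC2 (535 and 248 CPM), a further protein of the same inhibitor family, and complement factor CFB (815 and 528 CPM). SAA1 and SAA2 are near-identical and may share reads. Restricted, 8 were higher and 1 lower with a median of 0.57, and CFB was at a log2 ratio of 0.16. Between upper and lower LCN2-middle barcodes the list's median was 0.29.

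Most measured MHC class II genes and 7 of 13 MHC class I genes were higher. In MHC class II, which presents peptides from taken-up proteins, 10 of 11 measured genes were higher and 0 lower, with a median log2 ratio of 1.03. CD74, the invariant chain, was at 3909 CPM in LCN2-high and 1601 CPM in LCN2-low. HLA-DRA was at 1308 and 629 CPM and HLA-DPB1 at 356 and 130 CPM (359 and 220 CPM in the restricted set). CIITA, the transactivator of the class, was the member that was not called, at 38.0 and 37.0 CPM. In MHC class I 7 of 13 were higher and 0 lower (median 0.60), with B2M, the shared light chain, at 4913 and 2626 CPM and HLA-B at 2425 and 1180 CPM. The medians were 0.61 for class II and 0.50 for class I in the restricted set, where 6 of 10 and 5 of 12 were higher. Between upper and lower LCN2-middle barcodes the medians were 0.11 for class II and 0.27 for class I. HLA genes are alike in sequence, so reads may be split among them. Of 12 measured interferon-stimulated genes 3 were higher and 1 lower (median 0.28), with IFI27 at 168 and 79.0 CPM and IFI44L at 27.4 and 56.2 CPM.

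Most measured mucin genes were higher as well. Of 7 measured mucin and trefoil genes 6 were higher and 0 lower (median 0.99). The gel-forming MUC5B was at 437 CPM in LCN2-high and 179 CPM in LCN2-low, the membrane-bound MUC1 at 299 and 150 CPM, and AGR2, a disulfide isomerase needed for mucin folding, at 1186 and 385 CPM. The list kept 5 of 7 in the restricted set (median 0.89), and its median between upper and lower LCN2-middle barcodes was 0.40. AGR2 was also at 636 CPM in the RBFOX3 line. Chaperones of the unfolded protein response had a median of 0.42, with 5 of 17 higher and 0 lower, HSPA5 at 1774 and 1115 CPM among them. Restricted, 0 of 17 passed 1.5-fold and the median was 0.30, and between upper and lower LCN2-middle barcodes it was 0.037. NRF2 targets had 3 of 22 higher and 0 lower (median 0.32), led by the aldehyde dehydrogenase ALDH3A1 at 459 and 215 CPM, but 2 higher and 3 lower in the restricted set (median 0.073). Their median between upper and lower LCN2-middle barcodes was -0.0010.

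Genes of the NF-kB and chemokine axis were called in both directions, against 5.76% higher and 10.2% lower over all measured genes. Of 15 measured NF-kB factors and feedback genes 2 were higher and 0 lower, with a median log2 ratio of -0.026 (0.10 with TMM). The called members were ZC3H12A, a nuclease that degrades inflammatory mRNA (52.3 CPM in LCN2-high and 27.1 CPM in LCN2-low), and TNFAIP2 (994 and 646 CPM), and neither was past 1.5-fold in the restricted set, at 0.58 and 0.55. NFKBIA, the inhibitor of NF-kB, was at 326 and 219 CPM, and ICAM1 at 105 and 107 CPM. Of 12 chemokines and cytokines 1 was higher, CCL28 (86.6 and 46.3 CPM), and 3 were lower, CXCL3, CXCL5 and IL6, with a median of 0.12. CXCL8 and CCL20 were at 991 and 923 CPM and at 472 and 391 CPM. In the C/EBP and STAT3 list 0 of 11 were higher and 1, the kinase JAK2, was lower (median -0.17), with CEBPB at 82.2 and 81.2 CPM and CEBPD at 315 and 314 CPM.

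**Figure D3:**
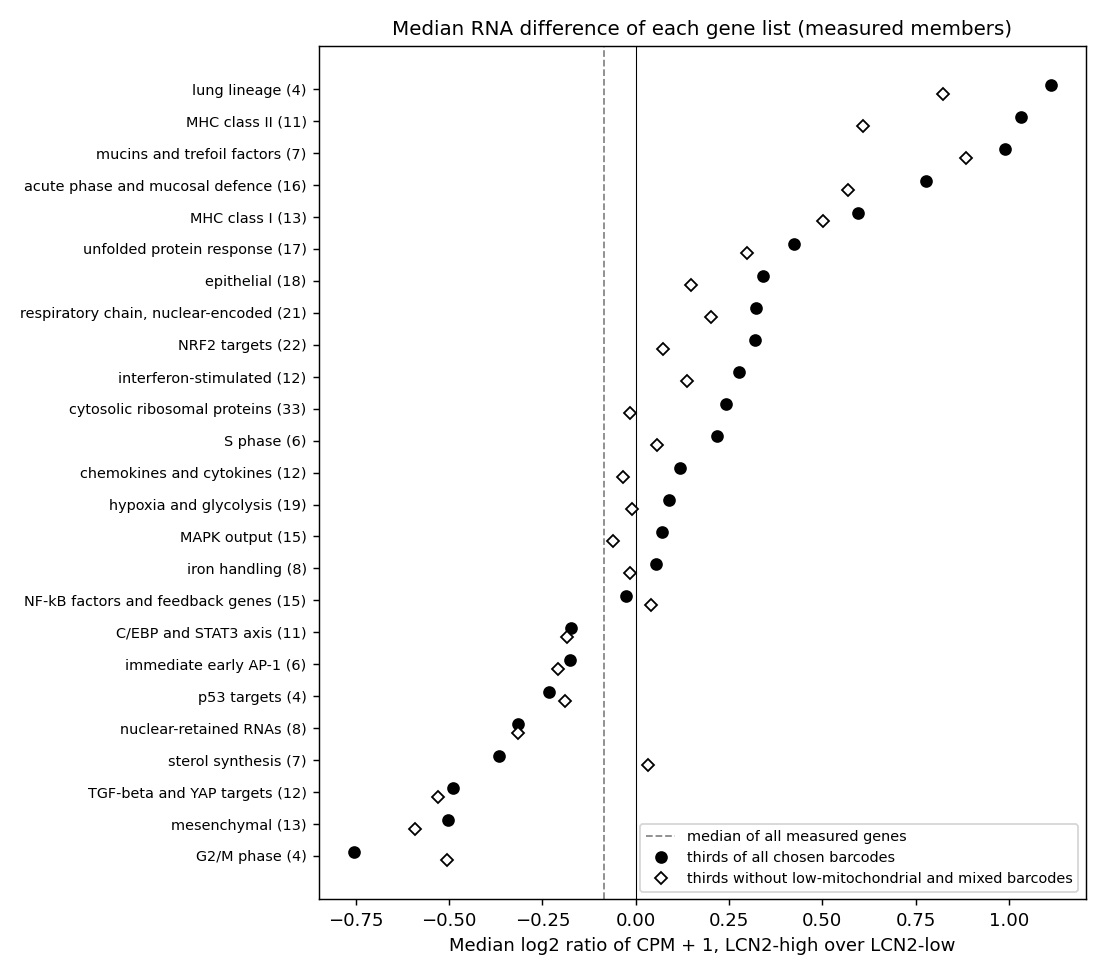
Median log2 ratio of CPM + 1, LCN2-high over LCN2-low, for each list with at least 3 measured genes (number in brackets), in all barcodes (filled) and in the restricted set (open); the dashed line is the median of all measured genes. Lung lineage (4 measured genes), MHC class II, mucins and acute phase genes lie at 0.78 or above in all barcodes. The G2/M list (4 measured genes) lies lowest at -0.75, and the mesenchymal and TGF-beta lists near -0.50.

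The genes furthest below in LCN2-high included a growth factor, a matrix protein and a chromatin protein. NRG1, a ligand of ERBB receptors, had 36 UMIs in LCN2-high and 345 in LCN2-low, or 22.4 CPM (15.7 to 31.1) against 246 CPM (220 to 273). One LCN2-low barcode held 18.4% of the UMIs of NRG1 in both groups, and per barcode the median was 0 in both. HMGA2, an architectural chromatin protein of embryonic and tumour cells, was broader: 237 CPM (214 to 262) in LCN2-high and 849 CPM (801 to 898) in LCN2-low. Its level ran from 0 to 1757 CPM with a median of 162 CPM per LCN2-high barcode, and from 0 to 4686 CPM with a median of 433 CPM per LCN2-low barcode, so the groups overlapped. EDIL3, a matrix protein that binds integrins, was at 48.0 and 293 CPM. Without low-mitochondrial and mixed barcodes NRG1 was at 16.0 and 132 CPM, HMGA2 at 222 and 748 CPM and EDIL3 at 32.7 and 229 CPM. These levels are not foreign to the other lines, since NRG1 was at 878 CPM in the RBFOX3 line and EDIL3 at 1140 CPM in the GRIA4 line.

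The other 17 of the 20 lowest genes were AC011287.1, TENM4, ADGRL3, CASC15, TLL1, CENPF, VEGFC, HMGA2-AS1, NPAS3, FAP, CCN1, FIGN, CNTNAP3, ADAM12, PDE10A, LANCL2 and TP63. VEGFC, a growth factor of lymphatic vessels, was at 20.6 CPM in LCN2-high and 107 CPM in LCN2-low. The latrophilin ADGRL3 was at 43.0 and 256 CPM, and FAP, a surface protease, at 18.1 and 85.4 CPM. TP63, a transcription factor of basal epithelium, was at 33.0 and 115 CPM. HMGA2-AS1 lies at the HMGA2 locus, and whether the counting used strand is not given in the sources used here, so their reads cannot be told apart. PDE10A and LANCL2 came under 1.5-fold in the restricted set, with log2 ratios of -0.24 and -0.50, and LANCL2 lies beside EGFR. AC011287.1 was at 7.48 and 87.6 CPM (7.61 and 40.2 CPM restricted), and TLL1, a matrix protease, at 13.7 and 75.5 CPM (15.2 and 31.3 CPM restricted). Between upper and lower LCN2-middle barcodes 4 of the 20 were above 0, namely CENPF (0.33), VEGFC (1.03), PDE10A (0.58) and LANCL2 (0.028). CENPF, a kinetochore protein, was at 17.4 and 91.8 CPM, and of 4 measured G2/M genes 2 were lower, CENPF and TOP2A (23.7 and 57.7 CPM). Only 4 of the 40 listed G2/M genes passed the minimum. Their median log2 ratio was -0.75, but 0.40 between upper and lower LCN2-middle barcodes. Of 6 S phase genes 1, HELLS, was higher and 0 lower. Over all measured genes 5.76% were higher and 10.2% lower.

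Lower genes came more often from long genes. Their median span was 119007 bases, against 17906 bases for the higher genes and 52070 bases for all measured genes with a span. With genes split into 3 equal classes by span, 239 of the shortest were higher and 79 lower, and 29 of the longest were higher and 339 lower. The same classes had 114 and 68, and 39 and 183, in the restricted set. The MALAT1 and NEAT1 share had a median of 4.50% in LCN2-high and 5.43% in LCN2-low, and its relation to gene span was not tested. With the groups formed within strata of the MALAT1 and NEAT1 share, 349 genes were higher and 627 lower, and 276 and 489 of these were among the genes called without strata.

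More mesenchymal genes and TGF-beta and YAP targets were lower than higher, and some epithelial genes were higher. Of 13 measured mesenchymal genes 5 were lower and 1, COL1A1, was higher (median -0.50). FN1, fibronectin, was at 963 CPM in LCN2-high and 1494 CPM in LCN2-low, the repressor of E-cadherin ZEB2 at 28.0 and 94.7 CPM, and CCN1, a YAP target, at 34.9 and 159 CPM. Per barcode FN1 had medians of 509 CPM in LCN2-high, 951 CPM in LCN2-middle and 641 CPM in LCN2-low. It was seen in 92.3% of LCN2-high and 81.2% of LCN2-low barcodes, and the highest of each group were at 10346 and 14984 CPM. For CCN1 one barcode held 15.1% of the UMIs, and the restricted levels were 30.5 and 91.6 CPM. FN1, COL5A1 and the receptor AXL were just past the limit, and with TMM 2 genes were lower and 1 higher. Restricted, 7 were lower and 0 higher (median -0.59), with FN1 at 959 and 1971 CPM. Of 12 TGF-beta and YAP genes 4 were lower and 0 higher (median -0.49), among them the ligand TGFB2 at 212 and 506 CPM, and 5 of 11 in the restricted set (median -0.53). Of 18 epithelial genes 6 were higher and 1 lower (median 0.34). EPCAM, a surface adhesion protein, was at 477 and 224 CPM, the splicing regulator ESRP1 at 110 and 57.7 CPM and KRT18 at 406 and 226 CPM, while CDH1, E-cadherin, was at 86.6 and 84.0 CPM. Restricted, 7 epithelial genes were higher (median 0.15). Between upper and lower LCN2-middle barcodes the medians were 0.058 for epithelial genes, -0.32 for mesenchymal genes and -0.24 for TGF-beta and YAP targets. ZEB1 was at 145 and 186 CPM and VIM, vimentin, at 773 and 961 CPM, neither past 1.5-fold.

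The remaining lists ranged from 0 calls to 3 of 4 measured genes. Cytosolic ribosomal protein genes had 0 of 33 past 1.5-fold (median 0.24; -0.015 in the restricted set), and nuclear-encoded respiratory chain genes 2 of 21 higher and 0 lower (median 0.32). Hypoxia and glycolysis, iron handling and p53 targets had 0 calls of 19, 8 and 4 measured genes, and sterol synthesis 1 lower of 7. MAPK output had 1 higher, the growth factor EREG (374 CPM in LCN2-high and 189 CPM in LCN2-low), and 2 lower, FOSL1 and MYC, of 15. Of 6 immediate early AP-1 genes 0 were higher and 1, FOSL1 again, was lower. Lung lineage genes had 3 of 4 higher, NAPSA, MUC5B and the phosphate transporter SLC34A2 (309 and 161 CPM). Nuclear-retained RNAs had 2 of 8 lower, NEAT1 (3414 and 6194 CPM) and PVT1. Markers of immune cells had 0 of 13 measured, with summed levels of 31.8 and 34.9 CPM. Of the endothelial markers 1 of 8 was measured, PECAM1 at 121 and 106 CPM, and of the fibroblast markers 2 of 8, COL1A1 and FAP.

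Accessibility at the LCN2 promoter did not differ beyond counting error, and a peak just past the end of the gene was higher in LCN2-high. The sequences that follow are promoters from 250 bases before to 50 bases after the start (RefSeq, GRCh38.p14), given for LCN2 and for 3 of the named genes whose promoter peaks differed beyond their counting intervals, a choice made after their values were seen. Capitals mark matches on either strand to an NF-kB pattern (GGGNNNNNCC), an AP-1 pattern (TGANTCA) or a C/EBP pattern (TTGCNNAA). The E-box CACGTG was in none of them.
LCN2, chr9:128149203-128149502, plus strand: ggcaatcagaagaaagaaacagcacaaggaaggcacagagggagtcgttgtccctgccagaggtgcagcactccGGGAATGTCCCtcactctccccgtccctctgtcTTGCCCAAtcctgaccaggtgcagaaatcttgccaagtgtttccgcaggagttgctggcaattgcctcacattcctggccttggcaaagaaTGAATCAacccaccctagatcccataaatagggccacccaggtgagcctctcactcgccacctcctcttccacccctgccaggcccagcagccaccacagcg
PIGR, chr1:206946417-206946716, minus strand: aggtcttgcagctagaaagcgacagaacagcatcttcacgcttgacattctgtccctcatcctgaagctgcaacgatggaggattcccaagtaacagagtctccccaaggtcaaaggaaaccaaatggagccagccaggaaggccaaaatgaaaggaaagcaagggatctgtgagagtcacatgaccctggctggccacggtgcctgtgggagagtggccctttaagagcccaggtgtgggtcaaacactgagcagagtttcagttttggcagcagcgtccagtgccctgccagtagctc
SLC6A14, chrX:116436356-116436655, plus strand: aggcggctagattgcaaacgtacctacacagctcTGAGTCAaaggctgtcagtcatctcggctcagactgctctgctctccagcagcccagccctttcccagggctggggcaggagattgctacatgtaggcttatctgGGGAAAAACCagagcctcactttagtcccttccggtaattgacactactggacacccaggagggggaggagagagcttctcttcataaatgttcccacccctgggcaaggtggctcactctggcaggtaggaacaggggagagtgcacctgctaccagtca
EDIL3, chr5:84384831-84385130, minus strand: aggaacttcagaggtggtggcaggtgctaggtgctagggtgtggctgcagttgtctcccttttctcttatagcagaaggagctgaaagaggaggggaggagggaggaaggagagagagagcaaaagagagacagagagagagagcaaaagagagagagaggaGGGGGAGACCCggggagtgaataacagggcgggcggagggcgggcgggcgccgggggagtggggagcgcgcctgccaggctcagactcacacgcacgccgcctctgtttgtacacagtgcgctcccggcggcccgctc

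LCN2 lies on the plus strand at chr9:128149453-128153453. The peak over its start (chr9:128148769-128149697) had 266 counts in LCN2-high and 280 in LCN2-low, from 69 LCN2-high and 70 LCN2-low barcodes. Scaled to all peak counts this was 71.8 CPM (60.1 to 85.1) in LCN2-high and 64.5 CPM (54.3 to 76.1) in LCN2-low, a ratio of 1.11 (0.87 to 1.42). LCN2 RNA differed 7.39-fold, but it ranked the barcodes, so the sizes of the 2 ratios cannot be compared. A fragment usually adds 2 counts, so the intervals are on counts divided by 2. The next peak, chr9:128153637-128154462, starts 184 bases past the end of the gene. It had 104 counts in LCN2-high and 43 in LCN2-low, from 43 and 20 barcodes, or 28.1 CPM (21.0 to 36.8) against 9.90 CPM (6.17 to 15.1), a ratio of 2.77 (1.65 to 4.79), and it was at 18.5 CPM in LCN2-middle. It was under the minimum of 200 counts for a call. Restricted, the ratio was 2.30 (1.34 to 4.05) at this peak and 0.97 (0.75 to 1.25) at the promoter. The other 6 peaks within 20 kb had ratios whose intervals all held 1, among them the peak over the listed start of the neighbouring gene C9orf16 at 66.1 and 71.6 CPM. Beyond the minimum of 1000 peak counts, ATAC counts played no part in choosing the barcodes before the restriction. The ranking by LCN2 used no ATAC counts in either set. The restricted set was also cut by accessibility at leading peaks of other lines, so its ratios are not independent of a choice by ATAC counts.

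**Figure D4:**
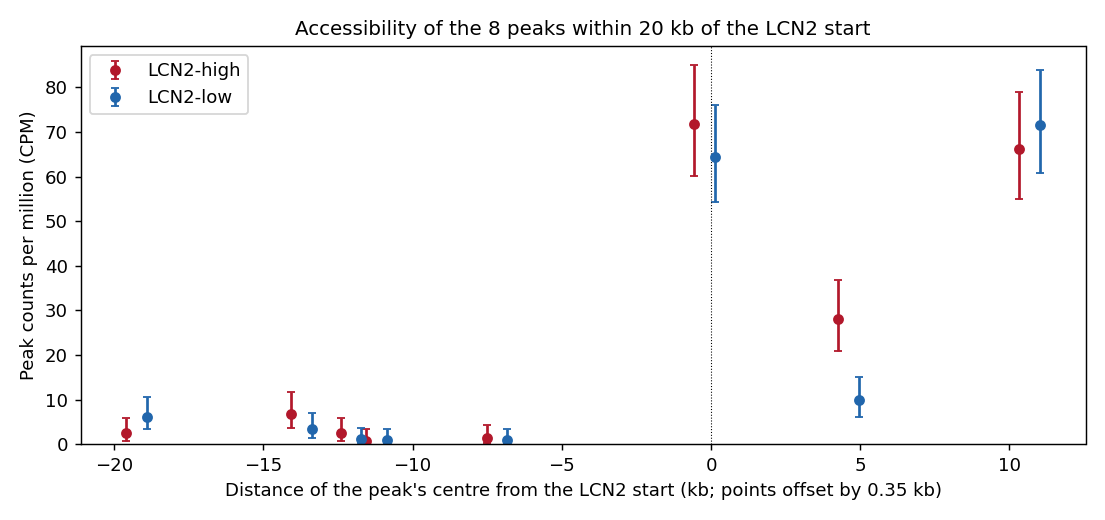
Accessibility in CPM of the 8 peaks within 20 kb of the LCN2 start against the distance of the peak's centre from that start in kb, in LCN2-high (red) and LCN2-low (blue) barcodes, with counting intervals; both points of a peak are offset by 0.35 kb. The intervals overlap at the start and separate at the peak past the gene's end, 28.1 against 9.90 CPM.

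A smaller share of measured peaks than of measured genes passed 1.5-fold, at unlike minimum counts. Of 9566 peaks with at least 200 counts, 199 (2.08%) were at least 1.5-fold higher and 250 (2.61%) at least 1.5-fold lower in LCN2-high, and at 2-fold 13 and 8. Their median log2 ratio was -0.00011. With barcodes counted as open or closed, with a minimum of 100 barcodes, 19 were higher and 3 lower of 5288. Between upper and lower LCN2-middle barcodes 71.4% of the higher peaks were above 0, against 54.1% of all peaks, while 50.4% of the lower peaks were below 0, against 45.9%. Where the nearest gene was measured, 12 of 68 higher peaks (17.6%) had a gene that was higher in RNA and 2 a lower one. Of 120 lower peaks 32 (26.7%) had a gene that was lower and 5 a higher one, and of all 4184 such peaks 5.76% and 8.84%. Among the 10 highest peaks, that over a listed start of LSR (chr19:35248384-35248969), a tight junction receptor, was at 47.0 CPM (37.6 to 57.9) in LCN2-high and 22.6 CPM (16.7 to 29.8) in LCN2-low, with LSR RNA at 123 and 65.5 CPM. That at COBL (chr7:51316354-51317304), an actin nucleator, was at 40.7 and 17.5 CPM, with RNA at 47.3 and 28.5 CPM. The third such peak with a measured nearest gene lies 97553 bases from DAAM1, at 45.3 and 21.9 CPM, with DAAM1 RNA at 163 and 171 CPM. The highest by ratio of CPM + 1 (chr11:113401444-113402348) was at 46.4 and 18.9 CPM, 2973 bases from the listed start of AP002840.1, which had 0 UMIs in both groups.

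Promoters of the genes called in RNA had median log2 ratios of accessibility near 0. The genes were called by their RNA ratio and not by their promoters, so the sizes of the 2 kinds of ratio cannot be compared. Of the 354 higher genes 177 had a promoter that passed the minimum, and their median log2 ratio of accessibility within 2 kb of the start was 0.048 (-0.019 to 0.11). For 260 of the 625 lower genes it was -0.044 (-0.10 to -0.011), and for all 3399 genes with such a promoter -0.00039. Among the 20 named higher genes 16 had a peak there, and the interval lay above 1 for 4 of them and held 1 for 12. PIGR's promoter had 26 counts in LCN2-high and 3 in LCN2-low (7 in LCN2-middle), a ratio of 7.61 (1.72 to 69.5), and SLC6A14's 61 and 29 counts, 2.51 (1.29 to 5.12). DAPP1's was at 34.0 and 21.2 CPM (1.60, 1.08 to 2.40) and AGR2's at 18.3 and 8.29 CPM (2.21, 1.22 to 4.16). Among restricted barcodes the ratio was 7.84 for PIGR and 2.33 (1.18 to 4.80) for SLC6A14, but 1.53 (0.997 to 2.36) for DAPP1 and 1.21 (0.66 to 2.22) for AGR2. FCGBP, 14.6-fold higher in RNA, had 16 promoter counts in each group, a ratio of 1.17 with a wide interval (0.38 to 3.58). Of 14 named lower genes with a promoter peak 1 had an interval below 1, EDIL3 at 13.8 and 25.6 CPM, a ratio of 0.54 (0.33 to 0.88) and 0.48 (0.27 to 0.83) in the restricted set. The promoters of CD74 (58.0 and 51.1 CPM) and HLA-DPB1 (19.7 and 21.2 CPM) had intervals that held 1.

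**Figure D5:**
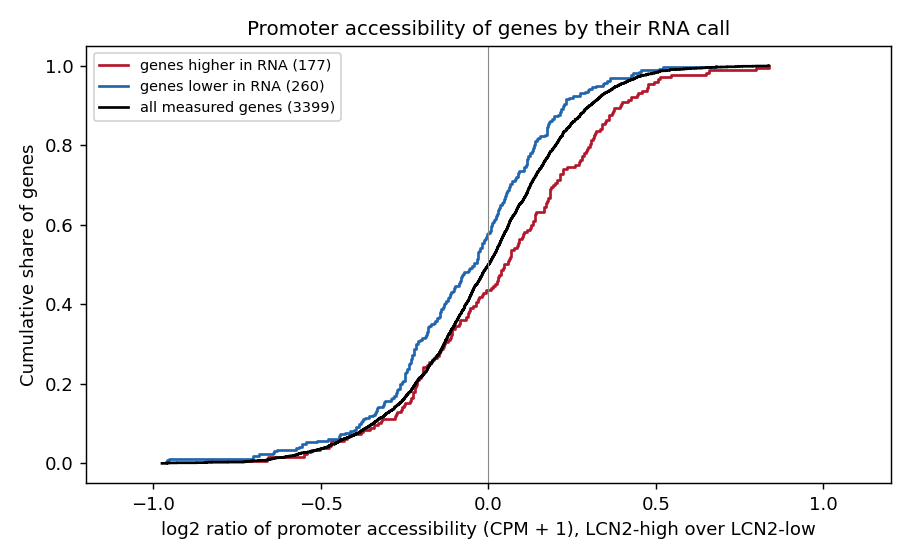
Cumulative share of genes against the log2 ratio of promoter accessibility (CPM + 1, LCN2-high over LCN2-low) for the 177 genes higher in RNA (red), the 260 lower (blue) and all 3399 measured genes (black). The 3 curves lie close together, with medians of 0.048, -0.044 and -0.00039.

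Several of the lowest peaks lie at EGFR. Of the 10 lowest peaks 3 lie at EGFR and 1 at its neighbour LANCL2, and the lowest (chr7:55132524-55133421) was at 24.6 CPM in LCN2-high and 89.1 CPM in LCN2-low. The log2 ratios of the 3 EGFR peaks were -1.82, -1.32 and -1.29 in all barcodes and -0.58, -0.57 and -0.44 in the restricted set, and that of the LANCL2 peak -1.11 and -0.15. The restricted set was itself cut by accessibility at leading peaks of other lines, the GRIA4 line among them. The change between the 2 sets is therefore not independent of that signal, and the part of the cut in it was not tested. EGFR RNA was at 431 CPM in LCN2-high and 1291 CPM in LCN2-low in sum, but had medians per barcode of 396 and 430 CPM, with 1 LCN2-low barcode at 43484 CPM. In the GRIA4 line EGFR was at 8732 CPM. Restricted, EGFR was at 417 and 530 CPM and its promoter ratio was 1.09 (0.82 to 1.45), against 0.72 (0.56 to 0.91) in all barcodes. Of 74 genes that lead the GRIA4 line 9 were measured, with 7 lower in LCN2-high and 0 higher. Of 141 that lead the RBFOX3 line 7 were measured, with 6 lower and 0 higher. Such genes are low in the chosen barcodes by definition, so they can pass the minimum through mixed LCN2-low barcodes. Their counts are thus a description and cannot be weighed against the shares of all measured genes, 10.2% lower and 5.76% higher. The part of other-line signal in the lower peaks was not tested.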

How the data were processed

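The authors made 1 joint matrix (build GRCh38, tool Cell Ranger ARC version 2.0.0, both per the submitters' processing notes) and deposited its values as whole-number counts with no normalisation: UMIs per gene and counts per peak and barcode. Sources used here do not give the cell calling, the peak calling, the annotation or the use of strand. The analysed barcodes held 1780281 gene UMIs and 3705937 peak counts in LCN2-high and 1510609 and 4341309 in LCN2-low. Counts were summed per group and expressed as CPM, over UMIs outside mitochondrial genes or over all peak counts; log2 ratios are of CPM + 1, which understates ratios of low genes, and LCN2, the 4 choosing and the 9 exclusion genes were left out of calls. Intervals of sums are exact Poisson, of shares and ratios exact binomial (Clopper-Pearson), and of medians binomial over genes, which are not independent. No doublet caller was run: mixtures with other lines were left to the choosing rule and the cut on accessibility, and doublets within the line cannot be seen.

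The barcodes, gene lists and tests were chosen with earlier results of these data known. Named genes are the 20 highest and 20 lowest measured genes that go the same way in 3 strata of depth, and named peaks likewise 10 each way plus all within 20 kb of LCN2; list members named are those past 1.5-fold and some of the most abundant, and other genes (such as EGFR, CIITA, ICAM1, CDH1, ZEB1, AP002840.1 and genes picked by their promoter) were named after their values were seen. Gene starts, spans and promoters came from RefSeq GRCh38.p14 by symbol, and the gene nearest to a peak from the deposited list of gene entries. In all, 17 alternatives were run, of which 4 were chosen after seeing the data: the stricter accessibility cut, the MALAT1 and NEAT1 strata, the minimum of 4% mitochondrial UMIs, and this minimum with the stricter cut (the restricted set). The ratio and its interval were tested on simulated Poisson counts. These held no variation between barcodes, so the test does not show how the intervals do under such variation. Tools were Python 3.11.15, numpy 2.4.6, scipy 1.17.1, pandas 2.3.3, matplotlib 3.10.9, R 4.3.3 and edgeR 4.0.16, used only for TMM factors. One item among the gene lists is not reported here.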

Additional observations from a re-analysis of the deposited data

How the results depend on the processing

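Without replicates or tests, only sizes can be compared. Genes higher and lower numbered 354 and 625, and 73 and 142 at 2-fold, 598 and 382 with TMM, and 3809 and 5880 with no minimum count. With at least 4% mitochondrial UMIs 216 were higher, and in the restricted set 211 were higher and 366 lower. Within mitochondrial strata 243 were higher and 496 lower, 181 and 355 of them also called without strata. Peaks higher and lower numbered 199 and 250, and 13 and 8 at 2-fold, 113 and 146 without any UMI of the 9 exclusion genes, 34806 and 33915 with no minimum, 121 and 147 with CPM + 5, and 19 and 3 as open or closed. Lower peaks numbered 165 with 88 barcodes in each group, 123 in a narrower UMI range (6000 to 25000), 156 with at least 4% mitochondrial UMIs and 137 in the restricted set. The promoter median of higher genes, 0.048, was 0.18 at 2-fold, 0.13 with 88 barcodes in each group, 0.13 within mitochondrial strata, 0.15 in the narrower range, 0.13 with at least 4% mitochondrial UMIs and 0.15 in the restricted set; that of lower genes, -0.044, was 0.011 as open or closed, -0.0057 with at least 4% mitochondrial UMIs and -0.010 in the restricted set. The LANCL2 peak changed sign as open or closed, to 0.24. The cause was not tested. The LCN2 promoter ratio stayed within its counting interval under every alternative run. Depth limits the calls: 6150 of 36601 genes and 9566 of 187920 peaks had enough counts. No paired analysis was possible because the result comes from no test and there is 1 library of each kind.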

Other observations

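Counted over whole chromosomes, accessibility differed little between LCN2-high and LCN2-low barcodes. The log2 ratio of the share of peak counts was lowest for chromosomes X (-0.14) and 4 (-0.14) and highest for 21 (0.13) and 14 (0.11). Without barcodes that carry accessibility of another line these values were -0.12, -0.16, 0.12 and 0.097.

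Promoters of the called genes were searched for 4 patterns. The AP-1 pattern TGANTCA was in 19 of 273 promoters of higher genes (6.96%), 24 of 475 of lower genes (5.05%) and 4.31% of those of all measured genes, against 7.76% of all 27305 promoters in the table. For the C/EBP pattern TTGCNNAA the shares were 6.59%, 7.79%, 7.08% and 10.6%, and for the E-box CACGTG 5.13%, 10.9%, 10.2% and 7.43%. The loose NF-kB pattern GGGNNNNNCC was in 71.8%, 70.1%, 72.9% and 58.0%. The windows run from 250 bases before to 50 bases after the start, both strands were searched, and a match is a description of letters only.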
